A study of Mus musculus with 6 samples.

Results

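The expression of 10 early response genes was followed in hair bulge (HB) keratinocytes of K19 *Itga3* KO and WT mice: *Egr1*, *Egr2*, *Egr3*, *Nr4a1*, *Klf2*, *Klf6*, *Ier2*, *Ier3*, *Myc* and *Socs3*. They were taken from the count table by gene symbol, and these 10 genes made up 10 of its 22295 rows. All 10 were tested, and all 10 had 10 or more counts in every library. All mice carried the keratin 19 promoter-driven Cre-ERT and the mTmG reporter on an FVB background, and KO mice carried Itga3 fl/fl in addition. Per the labels, mice received tamoxifen (10 mg/ml, over 4 days) at 6 weeks of age, for which the study's methods give a different schedule and concentration. They received 30 ug of DMBA at 7 weeks of age, followed by 4 applications of 12.34 ug TPA over 2 weeks, each in 200 ul of acetone. GFP-positive keratinocytes were then sorted from the back skin, and RNA was sequenced from 3 WT and 3 KO mice, with 1 library per mouse. The columns of the count table are called WT a to WT c and KO a to KO c, and values are given in that order throughout. Tamoxifen-activated Cre switches the reporter to GFP in cells that use the keratin 19 promoter and in their progeny, so the sorted cells are not restricted to the HB itself. No mice without DMBA/TPA were sequenced, so levels could not be set against resting skin, and the time between the last TPA dose and the sort is not given in the sources used here.

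Immediate early genes are switched on within minutes of a stimulus without new protein synthesis, through kinases that act on transcription factors already bound at their promoters, such as serum response factor (SRF) with its ternary complex partners (TCFs) and CREB. In keratinocytes, growth factors, wounding, enzymatic dissociation and phorbol esters such as TPA, which activates protein kinase C, are all inducers. The products are mainly transcription factors and feedback inhibitors, and most of their mRNAs are short-lived.

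The WT libraries held 21167965 to 22851841 counts and the KO libraries 20578309 to 23670507, so that 3 counts, taken as the floor, corresponded to 0.128 to 0.145 CPM (counts scaled to the total of each library after TMM adjustment). The targeted gene *Itga3* was at 371, 252 and 271 CPM in the WT libraries and at 131, 124 and 134 CPM in the KO libraries. The log2 fold change of *Itga3*, KO over WT, was -1.20 (SE 0.13, adjusted p = 0.00283 in edgeR's quasi-likelihood test with Benjamini-Hochberg adjustment). The HB markers *Krt15*, *Cd34* and *Lgr5* were expressed in every library, with *Cd34* at 853 ± 40.7 CPM in WT and 516 ± 113 CPM in KO (mean ± SD, n = 3 each). Of the genes tested, 146 of 21681 (0.673%) had an adjusted p below 0.05, 100 of them (0.461%) higher and 46 (0.212%) lower in KO than in WT. With 3 libraries against 3, the exact two-sided permutation test used for single genes cannot give a p below 0.1.

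All 10 genes had a fitted log2 fold change above 0, with a median of 0.37 against 8.82e-05 for all tested genes. Of the 10, *Egr3* and *Socs3* rose in KO keratinocytes at an adjusted p below 0.05, as did 0.461% of all tested genes. In *Egr2*, *Egr3* and *Socs3*, 3 of the 10, every KO library lay above every WT library, whereas 8.03% of all tested genes did so and 16.3% had no overlap in either direction. None of the 10 genes had every KO library below every WT library, which 8.23% of tested genes had, and in the other 7 genes the genotypes overlapped. The shares of all tested genes include genes with few counts, whereas these 10 had 10 or more in every library. The 10 genes were measured in the same libraries, so they are not independent counts of a change. In bulk RNA from sorted cells, more cells that express a gene and more mRNA per cell cannot be told apart.

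**Figure D1:**
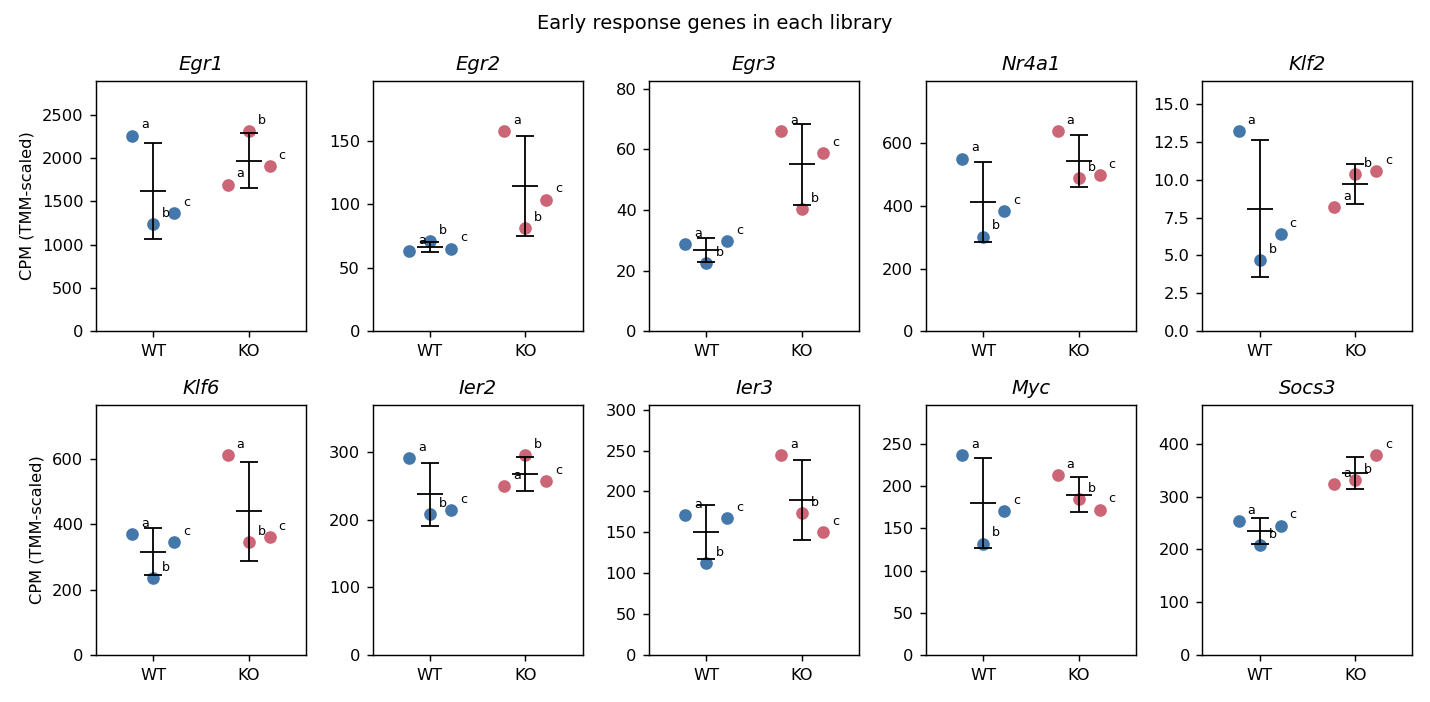
Expression of each of the 10 genes in each library, in CPM on a linear axis that starts at 0 and has its own scale for each gene. Points are single libraries (a, b, c), and the bars give the genotype mean and SD (n = 3). The points of KO lie above those of WT without overlap for *Egr2*, *Egr3* and *Socs3* only.

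To compare levels between genes, CPM values were divided by the length of the exons of each gene in kilobases. *Egr1* stood highest at 361 ± 124 CPM per kb in WT and 439 ± 70.1 in KO (SD, n = 3 each), above 99.7% of the tested genes in WT. It was followed in WT by *Ier2* (156 ± 30.5 CPM per kb), *Ier3* (133 ± 29.1), *Nr4a1* (117 ± 36.2), *Socs3* (81.5 ± 8.49), *Klf6* (72.1 ± 16.4) and *Myc* (66.1 ± 19.6). *Egr2* at 19.5 ± 1.16, *Egr3* at 6.11 ± 0.905 and *Klf2* at 4.38 ± 2.45 CPM per kb were the lowest. The order was identical in KO, but most neighbours in it were not separated: the ranges over the 6 libraries were apart only between *Egr1* and *Ier2*, between *Myc* and *Egr2* and between *Egr2* and *Egr3*. *Ier2* exceeded *Ier3*, and *Ier3* exceeded *Nr4a1*, in 4 of the 6 libraries each. Thus one EGR gene was among the most abundant mRNAs of these cells, whereas the other members of the same family were expressed at much lower levels.

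EGR proteins are zinc-finger transcription factors that bind GC-rich sites and are held in check by the NAB corepressors, which are EGR targets themselves. *Egr1* (ENSMUSG00000038418, chromosome 18) was at 2258, 1235 and 1367 CPM in the WT libraries and at 1692, 2311 and 1905 CPM in the KO libraries. WT a and KO b were almost level at the top, WT b and WT c were the lowest, and the genotypes overlapped. The log2 fold change of *Egr1* was 0.28 (SE 0.20, 95% interval -0.16 to 0.72, adjusted p = 0.649 in edgeR), and the exact permutation p was 0.3. Without WT a the value was 0.60 with an adjusted p of 0.0370, so that 1 WT library decided whether *Egr1* passed the threshold. In the other direction, it was 0.12 without WT b, 0.17 without WT c and 0.16 without KO b.

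*Egr2* (ENSMUSG00000037868, chr10:67535475-67542188), best known from hindbrain patterning and myelination, was at 63.2, 70.8 and 65.1 CPM in the WT libraries and at 158, 81.5 and 104 CPM in the KO libraries. The WT libraries were close to each other, and the KO libraries spread widely above them with KO a at the top. *Egr2* had a log2 fold change of 0.78 (SE 0.19, 95% interval 0.38 to 1.19), which did not pass the test (adjusted p = 0.0896 in edgeR, exact permutation p = 0.1). Without KO a the log2 fold change was 0.48 (adjusted p = 0.363 in edgeR), whereas without KO b it was 0.99 with an adjusted p of 0.0189. DESeq2 gave an adjusted p of 0.00979 and limma-voom 0.219. In 10 of the 12 alternatives *Egr2* did not pass the threshold.

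*Egr3* (ENSMUSG00000033730, chr14:70077445-70080157) encodes a close relative with the same DNA-binding preference. It was at 28.8, 22.4 and 29.6 CPM in the WT libraries and at 66.1, 40.2 and 58.9 CPM in the KO libraries. The lowest KO library was above the highest WT library, and KO a was again the highest. *Egr3* rose by 1.03 on the log2 scale (SE 0.17, 95% interval 0.65 to 1.41), a 2.04-fold change and the highest of the 10 genes. Its adjusted p was 0.0251 in edgeR, 4.25e-05 in DESeq2 and 0.119 in limma-voom, and the exact permutation p was 0.1, the smallest possible. Leaving out any 1 library kept the log2 fold change of *Egr3* within 0.88 to 1.23, but the adjusted p then ranged from 0.00362 without KO b to 0.363 without WT c, and missed the threshold without WT b, WT c, KO a or KO c.

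*Nr4a1* encodes an orphan nuclear receptor that binds DNA as a monomer or dimer and is active without a known ligand. *Nr4a1* (ENSMUSG00000023034, chr15:101266846-101274792) was at 551, 302 and 382 CPM in the WT libraries and at 639, 490 and 499 CPM in the KO libraries. KO a was highest, but WT a exceeded both other KO libraries. The log2 fold change of *Nr4a1* was 0.40 (SE 0.19, 95% interval -0.01 to 0.81, adjusted p = 0.447 in edgeR), with an exact permutation p of 0.3. As for *Egr1*, leaving out WT a brought the gene past the threshold, with a log2 fold change of 0.67 and an adjusted p of 0.0339, whereas the value was 0.22 without WT b and 0.26 without KO a.

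Krüppel-like factors are zinc-finger transcription factors. KLF2 is known from quiescent endothelial and T cells, and KLF6 from injury and stress responses. *Klf2* (ENSMUSG00000055148, chr8:72319033-72321656) was at 13.2, 4.67 and 6.39 CPM in the WT libraries and at 8.20, 10.4 and 10.6 CPM in the KO libraries, with only 102 to 288 counts behind each value. All 3 KO libraries lay between WT a and WT c. *Klf2* had a log2 fold change of 0.26 (SE 0.31, 95% interval -0.41 to 0.93, adjusted p = 0.732 in edgeR) and was -0.012 without WT b, 0.12 without WT c and 0.82 without WT a, so that no direction could be given. *Klf6* (ENSMUSG00000000078, chr13:5861489-5870393) was at 370, 234 and 345 CPM in the WT libraries and at 613, 346 and 360 CPM in the KO libraries. KO b and KO c fell within the WT range, and KO a stood well above all others. *Klf6* had a log2 fold change of 0.47 (SE 0.22, adjusted p = 0.430 in edgeR, exact permutation p = 0.4), and leaving out KO a gave 0.16 and WT b 0.30.

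IER2 is a nuclear protein of the early response, and IER3 (IEX-1) modulates survival and ERK signaling. *Ier2* (ENSMUSG00000053560, chr8:84661331-84662852) was at 291, 208 and 214 CPM in the WT libraries and at 249.98, 296 and 257 CPM in the KO libraries. Its libraries ranked in the same order as those of *Egr1*, with KO b first and WT a second. *Ier2* had a log2 fold change of 0.17 (SE 0.13, 95% interval -0.12 to 0.46, adjusted p = 0.671 in edgeR), which was 0.35 without WT a, 0.083 without WT b and 0.10 without WT c or KO b. *Ier3* (ENSMUSG00000003541, chr17:35821684-35822923) was at 171, 112 and 167 CPM in the WT libraries and at 245, 173 and 150.1 CPM in the KO libraries. KO a was highest and KO c lay between WT b and WT c. *Ier3* had a log2 fold change of 0.33 (SE 0.19, 95% interval -0.07 to 0.74, adjusted p = 0.552 in edgeR), and the value was lower, 0.11 without KO a and 0.16 without WT b.

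*Myc* encodes the transcription factor that pairs with MAX at E-boxes and drives growth and exit from the stem cell compartment in epidermis. *Myc* (ENSMUSG00000022346, chr15:61985341-61990374) was at 237, 132 and 170.01 CPM in the WT libraries and at 213, 185 and 172 CPM in the KO libraries. Its highest and its lowest library were both WT. *Myc* had a log2 fold change of 0.08 (SE 0.17, 95% interval -0.30 to 0.46, adjusted p = 0.872 in edgeR), the smallest of the 10 genes, and it turned to -0.099 without WT b and to -0.010 without KO a, while it was 0.34 without WT a.

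SOCS3 is induced by STAT3 downstream of IL-6 family cytokines and inhibits the gp130 receptor and JAK kinases in a feedback loop. *Socs3* (ENSMUSG00000053113, chr11:117966079-117970047) was at 254, 208 and 245 CPM in the WT libraries and at 323, 332 and 379 CPM in the KO libraries. The genotypes were apart, KO c was the highest library, and KO a did not stand out. *Socs3* rose by 0.55 on the log2 scale (SE 0.11, 95% interval 0.32 to 0.78), a 1.46-fold change with an adjusted p of 0.0453 in edgeR and an exact permutation p of 0.1. The adjusted p was 0.000490 in DESeq2 and 0.111 in limma-voom. Among the edgeR fits that left out a single library, *Socs3* stayed below the threshold only without WT a (adjusted p = 0.01895). The adjusted p was 0.0639 to 0.368 when another library was left out, and the log2 fold changes over these fits were 0.47 to 0.61. *Socs3* lies on the same chromosome as *Itga3*, 22.9 Mb away, and whether sequence flanking the floxed *Itga3* allele had a part in its level was not tested.

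**Figure D2:**
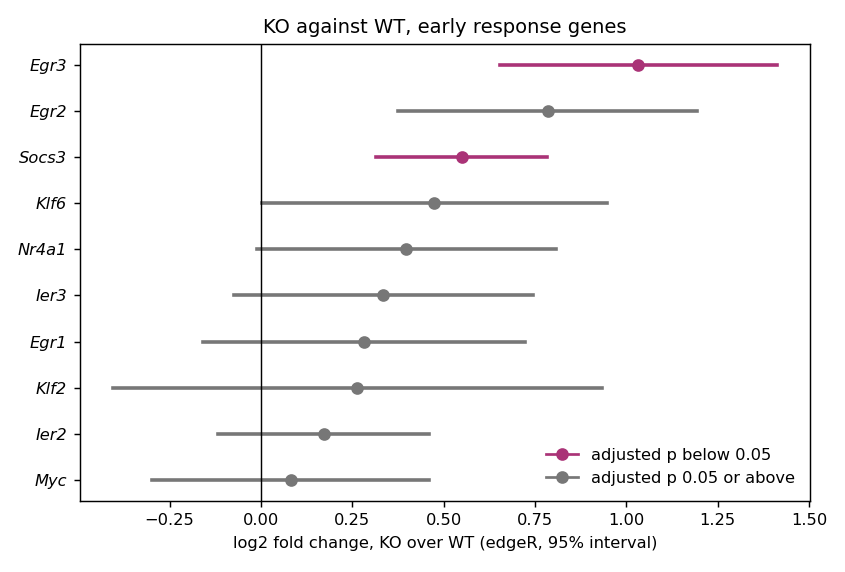
Log2 fold change of KO over WT for each gene from edgeR, with its 95% interval. Every estimate lies above 0, but only *Egr2*, *Egr3* and *Socs3* and, narrowly, *Klf6* have intervals above 0, and only *Egr3* and *Socs3* have an adjusted p below 0.05.

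Promoter windows from 250 bases before to 50 bases after the start site were found for 6 of the 10 genes (RefSeq, GRCm38.p6), *Egr2*, *Nr4a1*, *Klf2*, *Klf6*, *Ier3* and *Socs3*. They were searched on both strands for the EGR site GCGNGGGCG, the CRE TGACGTCA and its core TGACG, the STAT site TTCNNNGAA and the CArG box bound by SRF. An EGR site was present in 3 of the 6 windows, those of *Nr4a1*, *Klf2* and *Socs3*, and in 5.55% of 32851 windows of all genes. The windows of these 3 genes are shown 5′ to 3′ in the direction of transcription, since they hold matches to the EGR site. Capitals mark the motif matches: the CRE core and the EGR site in *Nr4a1* (chr15:101266596-101266895, + strand) and *Klf2* (chr8:72318812-72319111, + strand), and the EGR site and the STAT site in *Socs3* (chr11:117969317-117969616, - strand). Matches on the opposite strand appear as their reverse complement.
Nr4a1: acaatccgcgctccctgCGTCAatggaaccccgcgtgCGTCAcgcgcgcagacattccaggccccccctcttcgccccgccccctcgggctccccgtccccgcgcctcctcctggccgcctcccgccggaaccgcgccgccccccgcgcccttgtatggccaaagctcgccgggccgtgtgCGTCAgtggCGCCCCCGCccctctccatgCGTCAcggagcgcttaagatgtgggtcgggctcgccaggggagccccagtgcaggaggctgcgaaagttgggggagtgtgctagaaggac
Klf2: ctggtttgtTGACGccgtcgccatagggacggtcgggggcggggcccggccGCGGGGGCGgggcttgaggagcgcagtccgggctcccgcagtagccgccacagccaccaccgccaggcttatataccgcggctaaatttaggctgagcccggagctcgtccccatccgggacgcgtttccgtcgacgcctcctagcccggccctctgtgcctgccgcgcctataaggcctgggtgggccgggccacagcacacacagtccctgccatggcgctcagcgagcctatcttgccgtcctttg
Socs3: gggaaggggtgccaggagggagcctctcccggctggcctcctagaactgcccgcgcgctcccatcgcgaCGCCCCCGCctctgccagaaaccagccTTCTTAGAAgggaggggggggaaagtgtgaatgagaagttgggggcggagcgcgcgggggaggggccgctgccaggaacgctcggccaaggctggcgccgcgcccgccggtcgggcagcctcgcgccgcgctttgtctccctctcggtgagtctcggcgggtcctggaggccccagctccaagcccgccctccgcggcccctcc
The EGR site lay at -60 to -52 from the start site in *Nr4a1*, at -199 to -191 in *Klf2* and at -181 to -173 in *Socs3*. The start site of the *Socs3* window lay 681 bases downstream of the gene start in the count table, against 0 for *Nr4a1* and 29 for *Klf2*. The whole *Socs3* window thus lies within the gene interval given above. *Nr4a1* held 4 matches to the CRE core and *Klf2* held 1, and the core was present in 20.8% of all windows. The STAT site of *Socs3*, at -154 to -146, was present in 8.30% of all windows. Neither the full CRE (1.79% of all windows) nor the CArG box (1.63%), taken as CC, 6 bases of A or T and GG, matched in any of the 6 windows. Only exact matches within the windows were counted. Of the 5 windows of *Egr2*, only that nearest the gene start was searched. These matches describe sequence only, and no binding was measured.

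Many of the 10 genes ranked the libraries alike. WT b was the lowest of the 6 libraries for 9 of the 10 genes, all except *Egr2*, and WT a was the highest WT library for 8. KO a was the highest of all libraries for 5 genes (*Egr2*, *Egr3*, *Nr4a1*, *Klf6* and *Ier3*), KO b for *Egr1* and *Ier2*, KO c for *Socs3*, and WT a for *Klf2* and *Myc*. *Nr4a1* and *Klf6* shared 1 order of the libraries, and *Egr1* and *Ier2* another. Without WT b, the fitted log2 fold changes of *Klf2* and *Myc* were below 0, and edgeR called 0 of the 10 genes at an adjusted p below 0.05, as was the case without WT c, KO a or KO c. In these 4 settings 3 to 5 of the 10 had an unadjusted p below 0.05, against 4 with all libraries, where 11.5% of all tested genes had one. Without WT a, 4 of the 10 genes (*Egr1*, *Egr3*, *Nr4a1* and *Socs3*) and 521 of all genes had an adjusted p below 0.05, and 10 of the 10 and 3452 of all genes had an unadjusted p below 0.05.

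**Figure D3:**
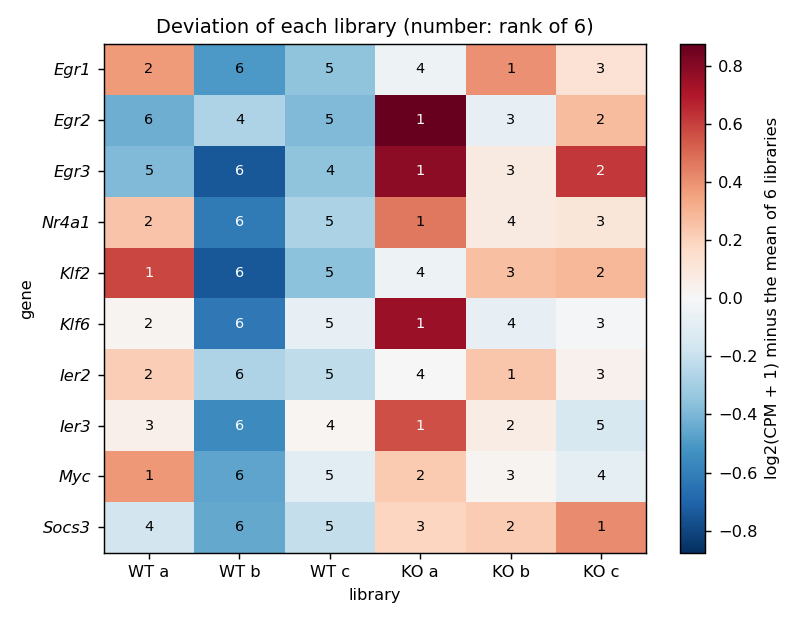
Deviation of each library from the mean of the 6 libraries in log2(CPM + 1), by gene, with the rank of the library printed in each cell (1 is highest). WT b holds rank 6 for 9 of the 10 genes, whereas KO a holds rank 1 for 5.

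The spread between mice of one genotype was large for most of these genes. The SD of log2(CPM + 1) within genotype was 0.50 for *Klf2*, 0.41 for *Klf6*, 0.37 for *Egr1*, 0.35 for *Ier3*, 0.34 for *Egr2* and *Nr4a1*, 0.32 for *Myc*, 0.30 for *Egr3* and 0.21 for *Ier2*. Genes of similar level had medians of 0.11 to 0.18. *Klf6* exceeded 98.3% of genes of similar level, and the percentiles of *Egr1*, *Egr2*, *Egr3*, *Nr4a1*, *Klf2*, *Ier3* and *Myc* were between 93.3 and 96.2. The percentile of *Egr1* rests on only 36 genes of similar level, against 274 or more for each other gene. *Ier2* at percentile 85.7 and *Socs3*, with an SD of 0.14 at percentile 62.3, were lower. *Egr2* varied mainly in KO (0.48 against 0.083 in WT), whereas *Egr1* (0.47 in WT against 0.23 in KO), *Nr4a1* (0.44 against 0.21) and *Myc* (0.42 against 0.16) had the larger SD in WT. These differences in SD rest on 3 libraries each and were not tested.

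**Figure D4:**
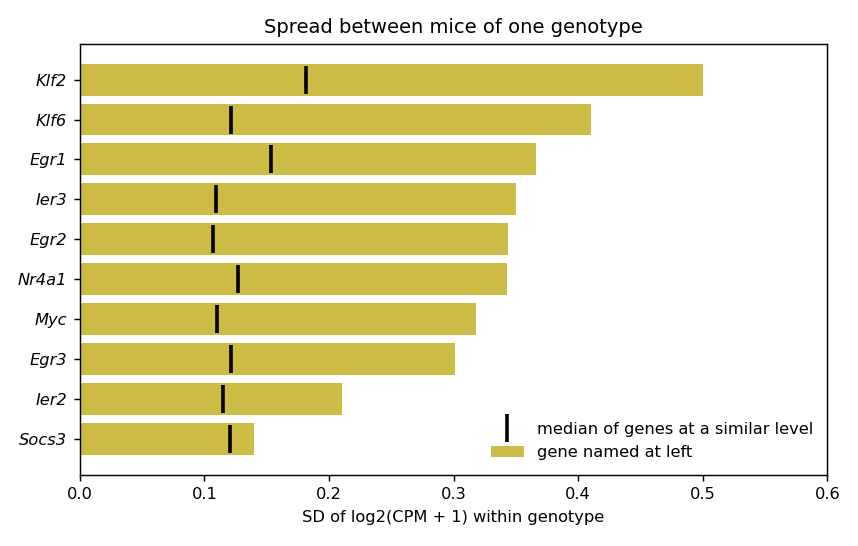
SD of log2(CPM + 1) within genotype for each of the 10 genes, beside the median of genes of similar level. All genes lie above that median, *Klf2* at 0.50 the highest and *Socs3* at 0.14 the lowest.

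The levels across the 6 libraries that were most like those of *Egr1*, among 8566 genes outside the 10 with a mean log2 CPM above 4, belonged to *Nagpa* (Pearson's r = 0.996), *Vps52* (0.995), *Smad6* (0.994), *Armc5* (0.993) and *Ddx51* (0.992). Among the 10 genes themselves, *Ier2* was the most like *Egr1* (r = 0.994). The correlations are given as a description over 6 points that share libraries and depth. None of these 5 genes passed the test between the genotypes (adjusted p of 0.681 to 0.844 in edgeR).

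The AP-1 genes *Fos*, *Fosb*, *Jun* and *Junb* are induced with the EGR genes. *Fos* was at 4166, 2115 and 2381 CPM in the WT libraries and at 3188, 3948 and 3467 CPM in the KO libraries, with WT a highest and WT b lowest. Summed over the 7 AP-1 genes, levels were 10635, 5400 and 6490 CPM in WT and 8362, 10056 and 8649 CPM in KO. Of the 7, 0 passed the test in edgeR, and 2 had an unadjusted p below 0.05, which 11.5% of all tested genes had. *Junb*, at 531 ± 122 CPM in WT and 705 ± 24.6 in KO, was the AP-1 gene with the smallest p (log2 fold change 0.41, adjusted p = 0.259). All 7 fitted log2 fold changes were above 0, with a median of 0.29, which was 0.62 without WT a and 0.11 without WT b.

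Dissociation of skin also induces early genes and heat shock genes. The 10 heat shock and isolation genes summed to 2879, 1704 and 1957 CPM in WT and to 2692, 2416 and 2118 CPM in KO, so that WT b was lowest here as well. In edgeR, 0 of the 10 passed the test and 0 had an unadjusted p below 0.05, while all 10 had log2 fold changes above 0 (median 0.14, 0.38 without WT a, 0.021 without WT b, 0.099 without WT c, 0.088 without KO a and 0.24 without KO c). Without WT a, *Hsph1*, a cochaperone of HSP70, rose in KO by 1.06 on the log2 scale (adjusted p = 0.00705 in edgeR). The part of the isolation procedure in the levels of the early response genes was not tested.

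Among 43 further early response genes, 5 passed the test in edgeR, 4 of them higher and 1 lower in KO, against 0.673% of all tested genes. At an unadjusted p below 0.05 there were 24, against 11.5% of all tested genes. The list, like the others here, was chosen with earlier results of these data known and holds *Ctgf*, which the study reported. Its counts are therefore not those of a list picked blind to the data. *Pim1*, a survival kinase induced by STAT3 and STAT5, rose from 54.4 ± 4.998 to 86.3 ± 8.62 CPM (log2 fold change 0.67, adjusted p = 0.0205). *Bhlhe40*, a repressor linked to hypoxia and the circadian clock, rose from 141 ± 13.8 to 215 ± 28.0 CPM (log2 fold change 0.61, adjusted p = 0.0416). *Plk2*, a polo-like kinase, rose from 64.6 ± 9.05 to 104.8 ± 17.2 CPM (log2 fold change 0.70, adjusted p = 0.0447), and *Gadd45a*, a growth arrest and stress gene, from 8.26 ± 2.05 to 16.9 ± 3.48 CPM (log2 fold change 1.03, adjusted p = 0.0472).

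*Ctgf* (CCN2), a matricellular protein and target of YAP and SRF, fell from 725 ± 124 to 245 ± 32.0 CPM (log2 fold change -1.56, adjusted p = 0.000540 in edgeR), against the direction of the others. Of the 43 genes, 36 had log2 fold changes above 0, with a median of 0.46, 17 had every KO library above every WT library (8.03% of all tested genes), and 2 had every KO library below (8.23%). The median was 0.22 without WT b and 0.28 without KO a. *Ppp1r15a*, *Ier5* and *Gadd45b*, which act in the stress response and growth arrest, followed at log2 fold changes of 0.65, 0.62 and 0.48 but did not pass (adjusted p of 0.0587, 0.0623 and 0.0664 in edgeR). In limma-voom 1 of the 43 passed, in DESeq2 10.

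The partners, inputs and neighbours of the 10 genes held no gene that passed the test in edgeR. Their counts at an unadjusted p below 0.05 stand against 11.5% of all tested genes. Of 6 EGR and NR4A partners and relatives, 1 had an unadjusted p below 0.05: *Egr4* at 3.02 ± 1.04 CPM in WT and 4.83 ± 0.432 in KO (log2 fold change 0.67, adjusted p = 0.300). *Nr4a3*, another orphan receptor of the family, had a log2 fold change of 0.62 (adjusted p = 0.554), and *Nab2*, the corepressor, of 0.15 (adjusted p = 0.681). Of 9 genes for SRF, TCF and CREB factors, 2 had an unadjusted p below 0.05, and *Elk4* was at 98.3 ± 1.43 CPM in WT and 119.6 ± 8.81 in KO (adjusted p = 0.203).

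Of 12 other KLF genes, 5 had an unadjusted p below 0.05, with *Klf16* at a log2 fold change of 0.58 (adjusted p = 0.0861) and *Klf15* at -1.17 (adjusted p = 0.203). The median over these KLF genes was 0.03, with 6 above 0, and ranged from -0.062 without KO a to 0.14 without WT b. Of 17 genes of the MYC network, 6 had an unadjusted p below 0.05. *Odc1*, the polyamine enzyme and MYC target, was at 126 ± 16.2 CPM in WT and 89.5 ± 8.73 in KO (log2 fold change -0.49, adjusted p = 0.0788), and the median of the MYC network was 0.05 (0.011 without WT a to 0.096 without KO b). Of 20 genes of IL-6/STAT3 signaling and the SOCS family, 6 had an unadjusted p below 0.05. *Cish*, a SOCS family inhibitor induced by STAT5, was at 49.6 ± 2.46 CPM in WT and 78.1 ± 19.1 in KO (log2 fold change 0.66, adjusted p = 0.0708), and *Lifr*, a receptor that signals with gp130, had a log2 fold change of -0.50 (adjusted p = 0.168). The median of this list was 0.08 (0.038 without KO a), against 0.55 for *Socs3* itself. DESeq2 called 2 of the KLF genes and 1 gene each of the MYC and IL-6/STAT3 lists, and limma-voom called 0 in all of these lists.

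**Figure D5:**
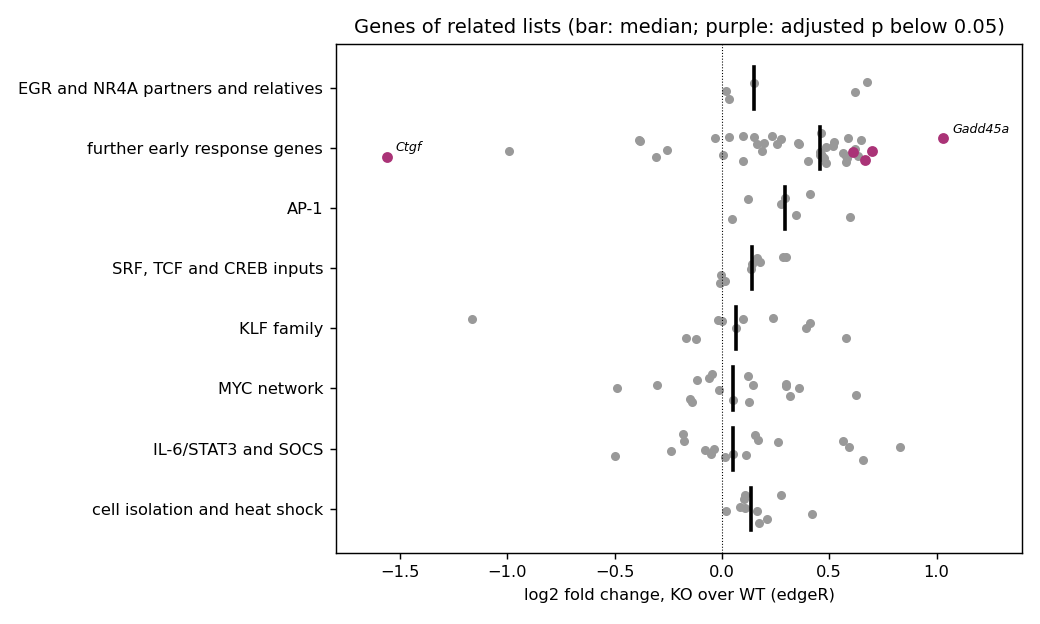
Log2 fold changes of KO over WT from edgeR for the genes of each related list, drawn for the 119 genes with a mean of at least 1 CPM in a genotype; bars are medians of the drawn genes and purple points have an adjusted p below 0.05. Most of the further early response genes lie above 0, with *Ctgf* far below at -1.56.

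Markers of other cell types and of keratinocyte layers were measured in the same libraries. The 6 fibroblast markers summed to 116 to 178 CPM in WT and 48.1 to 80.3 CPM in KO, without overlap, led by *Col1a1* (85.4 ± 41.8 against 37.5 ± 9.82 CPM), while *Dcn* was at 1.03 ± 0.588 in WT and 3.70 ± 1.98 in KO and *Col3a1* was at 0 in every WT library. The 6 immune markers summed to 9.71 to 12.7 CPM in WT and 7.99 to 13.8 in KO, with *Cd74* the most abundant and *Lyz2* at 0 in every WT library. The 4 melanocyte markers, led by *Dct*, summed to 6.33 to 12.9 CPM in WT and 9.75 to 11.4 in KO. The 3 endothelial markers, led by *Kdr* in WT, were at 2.29 to 3.44 CPM in WT and 2.64 to 3.42 in KO, with *Cdh5* at 0 in every WT library. The 5 suprabasal keratinocyte markers summed to 1149 to 1626 CPM in WT and 1405 to 1438 in KO. The 9 basal and bulge markers summed to 32296 to 49298 CPM in WT, with WT b lowest, and to 37544 to 43605 in KO. Of these lists, only *Cd34* passed the test (log2 fold change -0.72, adjusted p = 0.0462 in edgeR). The part of cell composition in the levels of the 10 genes was not tested.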

How the data were processed

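RNA was measured in 3 WT and 3 KO libraries. The authors made stranded libraries of polyadenylated RNA, sequenced single reads of 65 bases, aligned them with TopHat 2.1.0 and Bowtie 1.1 to mouse build 38 using Ensembl 77, and counted reads with a single match per gene. The deposited values are these raw counts. Reads with several matches were dropped, which lowers the counts of genes that have close copies. The columns carry the genotype but no number that matches a sample title. No 2 libraries agreed within sampling noise (lowest chi-square per degree of freedom 10.7 over 15 pairs). P-values measure the spread between libraries of different mice, and floors cover counting error only.

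KO was compared with WT in edgeR 4.0.16 (R 4.3.3, TMM factors, glmQLFit and glmQLFTest, Benjamini-Hochberg adjustment over the 21681 genes with a count in any library). All CPM values are TMM-scaled. Alternatives were DESeq2 1.42.0, limma-voom (limma 3.58.1), which the study's methods name, other scalings and filters, and leaving out each library. Exon lengths came from GENCODE M21 and promoters from RefSeq. Spread was computed on log2(CPM + 1), and genes of similar level had a mean within 0.5 log2 CPM. Counts were also simulated once for 20861 genes, with the spread that edgeR had estimated for each gene. The changed genes were drawn only from genes above a minimum mean count, so recovery of genes with few counts was not measured. On the simulated counts, edgeR recovered 80% of 100 genes changed by 1 on the log2 scale and 99% of 100 changed by 2. DESeq2 recovered 80% and 96% at these changes, and limma-voom 73% and 95%. Of the calls, 22.5% were false in edgeR, 18.5% in DESeq2 and 8.20% in limma-voom. Each of these shares was above the rate that the adjusted p threshold is meant to allow, and that of edgeR was the highest.

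The members and the lists were chosen with earlier results of these data known. Named genes are the 10 members, *Itga3*, from each list the genes past the threshold and up to 3 others with the smallest p, the most abundant marker of each cell type, and the 5 genes most like *Egr1*. *Fos*, *Dcn*, *Col3a1*, *Lyz2*, *Cdh5*, *Krt15* and *Lgr5* were named after their values were seen.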

Additional observations from a re-analysis of the deposited data

How the results depend on the processing

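No paired analysis was possible because the columns of the count table carry no replicate numbers. Of the 10 genes, 2 passed the test in edgeR, against 0.673% of all tested genes. The same 2 passed with library sizes alone or upper-quartile factors, and 3 passed in DESeq2. In limma-voom, after filterByExpr and with a minimum of 10 counts per library 0 passed, with 3 at an unadjusted p below 0.05 in each, and leaving out single libraries gave 0 to 4. *Klf2* reversed to -0.012 without WT b, and *Myc* to -0.099 without WT b and to -0.010 without KO a, against 0.82 and 0.34 without WT a. The other 8 kept their direction in every alternative. Over all genes, 146 calls became 546 in DESeq2, 24 in limma-voom, 15 after filterByExpr (13811 genes), 12 with at least 10 counts (13054 genes), and 5 to 521 without single libraries, 5 without WT c, 10 without KO a and 521 without WT a. The cause was not tested. *Itga3* ranged from -1.31 to -1.01 without single libraries, with an adjusted p of 0.130 without WT c and 0.0934 without KO a. Further early response genes called were 5 in the main test, 10 in DESeq2, 3 with library sizes alone, 1 in limma-voom, after filterByExpr and with at least 10 counts, and 0 (without WT c) to 13 (without WT a) without single libraries. DESeq2 called 2 KLF genes, 1 MYC network gene and 1 IL-6/STAT3 gene. Without single libraries the calls ranged from 0 to 1 for the EGR and NR4A relatives, the KLF genes and the heat shock genes, from 0 to 2 for IL-6/STAT3, and from 0 to 3 for AP-1 and the MYC network. Over the alternatives, adjusted p ranged from 3.72e-05 to 0.316 for *Pim1*, 0.000666 to 0.368 for *Bhlhe40*, 0.00115 to 0.363 for *Plk2*, 0.000813 to 0.368 for *Gadd45a* and 1.09e-20 to 0.0926 for *Ctgf*. With the longest transcript as length, *Nr4a1* ranked 2, *Ier2* 3 and *Ier3* 4 by level. With 102 to 288 counts per library, *Klf2* was the gene most limited by depth.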
